A study of Mus musculus with 28 samples.

Results

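Microglia sorted from single retinas 4 h after an intravitreal injection of lipopolysaccharide (LPS) were compared with microglia of naïve retinas by mRNA-Seq. The comparison comprised 6 retinas taken at 4 h, called EIU4h retinas after their label, and 10 naïve retinas, that is 16 of the 28 retinas of the series, which also holds 5 retinas taken at 18 h and 7 at 2 weeks. Members were chosen by the group that the labels give each retina, and no measured value was used. All animals carried both Cx3cr1-CreER, a tamoxifen-dependent Cre recombinase driven from the fractalkine receptor gene, and the R26-tdTomato reporter, so the naïve controls carried the same alleles and had received the same tamoxifen. The mice were heterozygous males on a C57BL/6 background, given tamoxifen a few weeks after birth and used some weeks later, with no age given for single retinas. Live tdTomato-high cells were sorted, which limits the sample to cells with present or past Cx3cr1 expression. The naïve eyes were not injected and no vehicle-injected group was analysed here, so the effect of the injection itself and that of LPS cannot be told apart. Each group held left and right eyes in equal number. Experiment 1 gave 6 naïve and 3 EIU4h retinas and experiment 2 gave 4 and 3. Which retinas came from the same mouse is not given in the labels, so p-values measure the spread between retinas, some of which may share an animal.

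LPS, a glycolipid of the outer membrane of Gram-negative bacteria, is handed by the co-receptor CD14 to the complex of TLR4 and MD-2 on the surface of myeloid cells. Signals then run through the adaptor MyD88 to NF-kappa B and the MAP kinases, which drive cytokine and chemokine genes, and through the adaptor TRIF to interferon-beta, which in turn drives interferon-stimulated genes. Microglia are the resident macrophages of the retina and brain, and in the resting state they express a set of so-called homeostatic genes under transcription factors such as SALL1 and PU.1.

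The deposited values were RPKM, read numbers scaled for transcript length and sequencing depth. Differences are given as log2 fold changes of RPKM + 1, and the added 1 makes those of weakly expressed genes too small. A level in RPKM can be compared between genes because it is corrected for transcript length. The number of alignments per retina was 7510000 to 15300000 in the naïve group and 10500000 to 19700000 at 4 h (exact permutation test, two-sided, p = 0.11, adjusted over 18 retina-level measures 0.24). Genes with an RPKM of at least 1 numbered 6552 to 11825 and 8254 to 10441 (exact p = 0.99). This pooled value hides a difference between the experiments. The means were 8754 in naïve and 9270 in EIU4h retinas of experiment 1, and 11299 and 10267 in experiment 2. In experiment 2 every EIU4h retina (9974 to 10441) lay below every naïve one (11129 to 11429). The table lists 40021 genes, and the 13164 that reached 1 RPKM in 5 or more of the 28 retinas were tested. Naïve retina 1 and EIU4h retina 1 stood apart from the rest, with 0.71% and 0.757% of their summed RPKM in mitochondrially encoded genes, against 3.01% to 5.78% in the other 14. The counts of DEGs, over all genes and in each list, were therefore also taken without these 2 retinas, a choice made after seeing the data. They are given where they moved by over 1.5 times. Naïve retinas 3 to 6, all of experiment 1, also differed from the other naïve retinas. They had 6552 to 8562 genes with an RPKM of at least 1, against 10358 to 11825, and 0 RPKM in summed erythrocyte genes. Some named genes split in the same way, such as Fth1, at 674 to 1340 RPKM against 2498 to 4783. Apart from the fit of experiment 2 alone, these retinas were left out only singly.

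The sorted cells carried the microglial markers, and most markers of blood leukocytes were at or near 0. Summed over 10 microglial marker genes, the level was 6669 to 14669.8 RPKM in naïve retinas and 2293 to 8610.2 at 4 h, a difference that passed the test (exact permutation test, two-sided, p = 0.0072, adjusted p = 0.019) and is described gene by gene below. The neutrophil genes S100a9, Ngp, Retnlg and Mmp8, the monocyte gene Chil3 and the T-cell genes Cd3e and Cd3g were listed at 0 in all 16 retinas, S100a8 was at 0.125 RPKM in 1 retina and at 0 in the others, and Ccr2 and Ly6c2 of monocytes stayed at or under 0.216 and 0.0279 RPKM. Only 2 of the 12 neutrophil markers listed could be tested, and of these Lcn2, which encodes the iron-scavenging acute-phase protein lipocalin 2, rose from a range of 0 to 0.959 RPKM (median 0.103) to one of 1.11 to 17.3 RPKM (median 11.6) (log2 fold change 2.73 ± 0.56 (SE), adjusted p = 0.0012) and Csf3r, at 5.60 to 83 RPKM in naïve and 0.168 to 36.8 at 4 h, was not called. Likewise 2 of 10 monocyte markers were tested, Plac8 and Ms4a4c, and neither was called or reached an unadjusted p under 0.05. Ms4a4c was at 8.59 to 56.9 RPKM in naïve and 5.53 to 158 at 4 h. The summed monocyte markers stood at 10.1 to 57 RPKM in naïve retinas and 7.17 to 174 at 4 h (exact permutation test, two-sided, p = 0.48, adjusted p = 0.72), with 174 in EIU4h retina 2 and 72 in EIU4h retina 3, above all naïve retinas. Their part in the results below was not tested. Of 14 lymphocyte markers 2 were tested, and Cd79b, a chain of the B-cell receptor, fell from a range of 20.2 to 81.3 RPKM (median 33.4) to one of 6.6 to 18.3 RPKM (median 12.3) (log2 fold change -1.56 ± 0.31 (SE), adjusted p = 0.00090). None of the 8 border-macrophage markers was called in the limma fit (2 at an unadjusted p under 0.05), and their summed level was 12.2 to 657 RPKM in naïve and 46.7 to 361 at 4 h. Transcripts of photoreceptors were present in both groups, with 2703 to 7914 and 2037 to 7289 RPKM summed over 17 genes, and none of these genes was called (2 at an unadjusted p under 0.05). Summed haemoglobin and other erythrocyte genes stood at 735 RPKM in EIU4h retina 5 and at 38.2 or less in the other EIU4h retinas. None of the 7 tested Müller glia genes, the 7 of bipolar, amacrine and ganglion cells, the 4 of erythrocytes and the 2 of endothelium and pericytes was called, with 2, 1, 2 and 0 at an unadjusted p under 0.05. A fit of untransformed RPKM called 1 gene in these lists, of bipolar, amacrine and ganglion cells. A fall in the RNA of a gene per cell and a smaller share of the cells that express it cannot be told apart in these bulk samples.

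At 4 h, 1063 of the 13164 genes (8.08%) were differentially expressed genes (DEGs), which had to pass both an adjusted p of 0.05 and a 2-fold change. Of these 485 were up-regulated (3.68%) and 578 down-regulated (4.39%), and the median log2 fold change over all genes tested was -0.11. The counts of DEGs in each list below are to be read beside these 2 shares. Increases were larger than decreases on the log2(RPKM + 1) scale, where a fall is bounded by the naïve level. A total of 259 DEGs rose by at least 2 on the log2 scale and 65 by at least 4, while 140 fell by at least 2 and 4 by at least 4. Up-regulated DEGs started from low levels, with a median naïve level of 1.84 RPKM and 184 of them under 1 RPKM on average. Down-regulated DEGs started from a median of 14.5 RPKM, against 3.89 over all genes tested. Part of this contrast is built in. A gene under 1 RPKM on average cannot fall 2-fold on this scale, and 0 down-regulated DEGs started there. The filter over all 28 retinas also admits genes near 0 in naïve retinas that pass only through the injected groups. All 6 EIU4h retinas lay above all 10 naïve retinas in 217 of the genes tested (1.65%), of which 206 were up-regulated DEGs, and below them in 187 (1.42%), of which 164 were down-regulated DEGs. Fitted separately, both experiments gave the sign of the pooled fit for 483 of the 485 up-regulated and 578 of the 578 down-regulated DEGs. These DEGs were called from the same retinas, so such agreement is largely fixed in advance and is no replication. Experiment 1 alone called 274 of the 485 and 155 of the 578, and experiment 2 alone 342 and 390. Rescaling every retina to the same summed RPKM moved the median of all genes to -0.28 and the split to 410 up-regulated and 1002 down-regulated DEGs, so changes of single genes are best read relative to these medians. Without naïve retina 1 and EIU4h retina 1 the counts were 441 and 460. Protein-coding genes made up 406 of the up-regulated and 475 of the down-regulated DEGs, long intergenic non-coding genes 16 and 26, and antisense genes 14 and 25, for which reads of the 2 strands cannot be told apart without stranded counting.

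**Figure D1:**
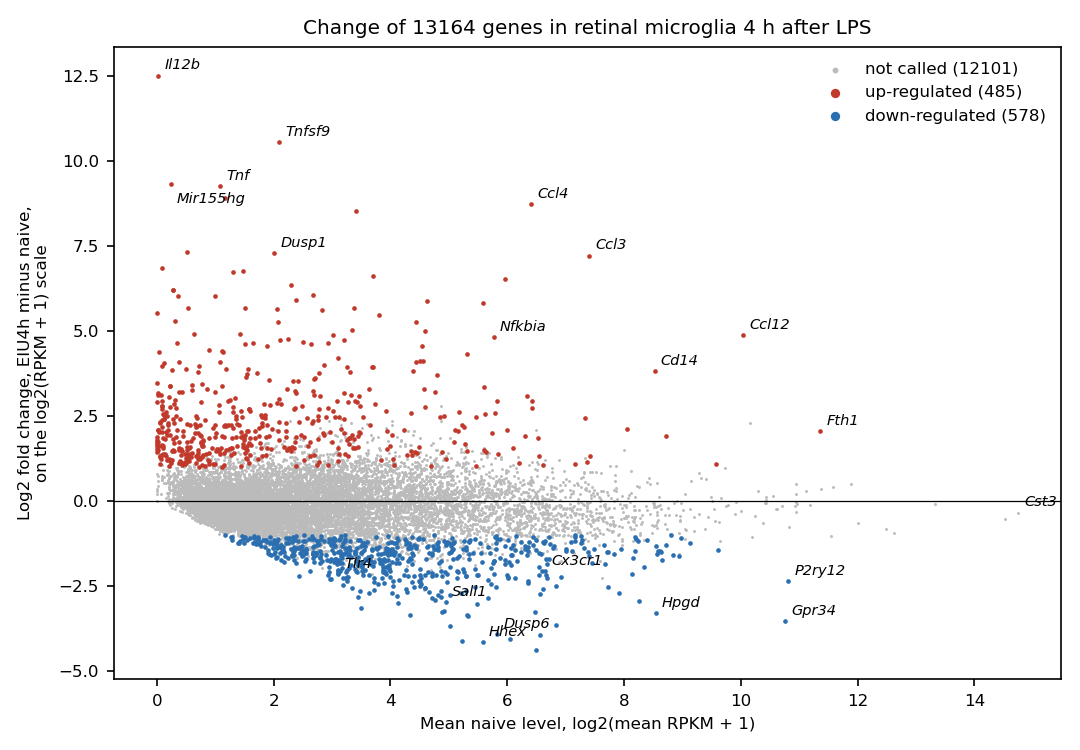
Log2 fold change at 4 h (vertical axis, 4 h minus naïve, on the log2(RPKM + 1) scale) of 13164 genes against their mean naïve level (horizontal axis, log2 of mean RPKM + 1), with 485 up-regulated DEGs in red, 578 down-regulated DEGs in blue and other genes in grey. Il12b stands highest at 12.50 from a naïve level near 0, whereas Gpr34 and P2ry12 are lower at 4 h from high naïve levels.

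The listed chemokine and cytokine genes took a larger share of the summed RPKM at 4 h. The 24 chemokine genes listed together took 0.185 to 0.952% of the summed RPKM of naïve retinas and 15.6 to 22.5% at 4 h (exact permutation test, two-sided, p = 0.00025, the smallest that 6 against 10 retinas can give, adjusted p = 0.00090). Most of that share lay in Ccl3, Ccl4 and Ccl12, with 0.0924 to 0.841% in naïve and 14.7 to 21.3% in EIU4h retinas. The 26 cytokine genes in the table took 0.0225 to 0.0700% and 2.26 to 5.09%. All 6 EIU4h retinas lay above all naïve retinas in each of these shares, in both experiments. The lists were chosen with earlier results of these data known, so the p-value of the chemokine share is not independent support. The 100 genes with the highest values took 37.8 to 50.7% of the summed RPKM in naïve and 57.6 to 62.8% in EIU4h retinas. In naïve microglia the genes with the highest mean level included Cst3, a cysteine protease inhibitor, Ctss, a lysosomal protease, and Tmsb4x, an actin-binding peptide. At 4 h Ccl12, Ccl4 and Ccl3 stood first, above Cst3, with means of 27839 ± 11970.2, 27514 ± 10965 and 23159 ± 10845 RPKM (SD, n = 6), and Fth1, Cd14, Il12b and Il1a were among the highest 10. Cst3 itself was at 13759 to 35642 RPKM (median 27418) in naïve and 14203 to 30984 RPKM (median 21122) at 4 h and was not called (log2 fold change -0.34 ± 0.20 (SE), adjusted p = 0.36). Fth1, the ferritin heavy chain that stores iron, rose from a range of 674 to 4783 RPKM (median 2778) to one of 5176 to 11798 RPKM (median 9872) (log2 fold change 2.06 ± 0.43 (SE), adjusted p = 0.0013). The summed RPKM of a retina was 298434 to 404838 in the naïve group and 394112 to 509221 at 4 h (exact permutation test, two-sided, p = 0.0010, adjusted p = 0.0030).

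**Figure D2:**
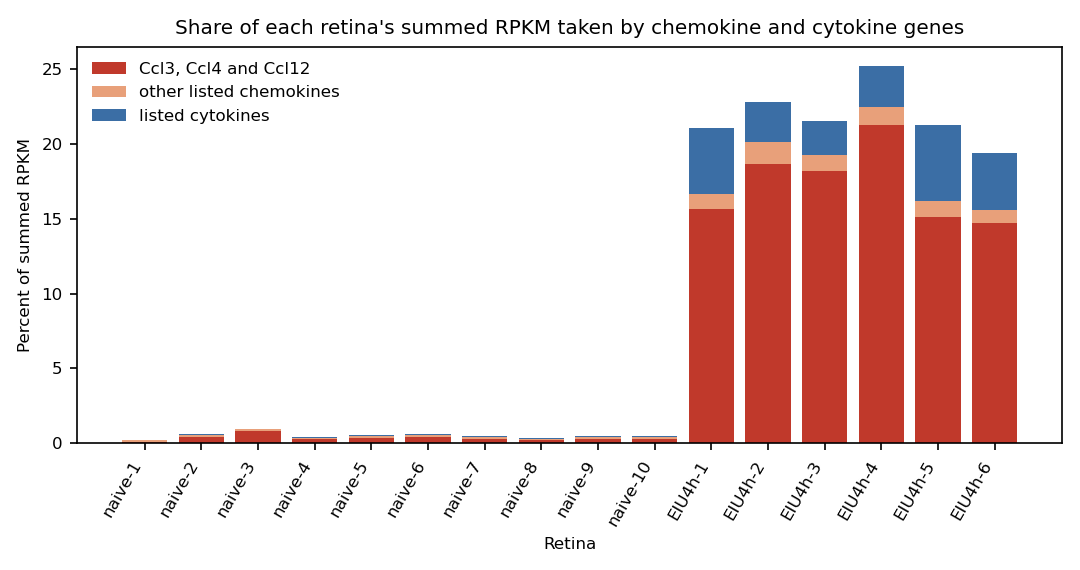
Percent of the summed RPKM of each retina (vertical axis) taken by Ccl3, Ccl4 and Ccl12 (red), the other listed chemokines (orange) and the listed cytokines (blue), for 10 naïve and 6 EIU4h retinas (horizontal axis). The chemokine share is 15.6 to 22.5% in EIU4h retinas and at most 0.952% in naïve retinas.

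Among the receptors that sense LPS, some rose and others fell. Of 13 toll-like receptor and co-receptor genes tested, 3 rose, 3 fell and 7 did not pass the test, with a median log2 fold change of -0.27 and a mean of 0.38. The share in each direction was 23.1%, against 3.68% and 4.39% of all genes. Tlr4 (GRCm38 chr4:66827584-66930284), the LPS receptor itself, was at 0.697 to 12.4 RPKM (median 8.94) in naïve retinas and 0 to 1.63 RPKM (median 1.05) at 4 h, a log2 fold change of -2.15 ± 0.43 (SE), adjusted p = 0.00097. Only naïve retina 3, at 0.697 RPKM, fell within the range of the 4 h group. Ly96, which encodes MD-2, fell from a range of 13.5 to 101 RPKM (median 64.1) to one of 11.1 to 80.4 RPKM (median 16.8) (log2 fold change -1.33 ± 0.39 (SE), adjusted p = 0.024), with overlap between the groups, and without EIU4h retina 1, 5 or 6 its adjusted p was 0.069 to 0.091. Its change was -0.69 in experiment 1 and -2.09 in experiment 2. Ly86, which encodes MD-1, the partner of the related receptor RP105, fell from a median of 440.0 to 132 RPKM. In contrast Cd14, the co-receptor that loads LPS, rose from a range of 223 to 661 RPKM (median 310.4) to one of 1874 to 14678 RPKM (median 3458) (log2 fold change 3.82 ± 0.42 (SE), adjusted p = 6.4e-08), so every EIU4h retina lay above every naïve one. Tlr2, the receptor for bacterial lipoproteins, rose from a range of 13 to 45.7 RPKM (median 17.9) to one of 208 to 1263 RPKM (median 515), again without overlap (log2 fold change 4.56 ± 0.39 (SE), adjusted p = 4.0e-10), and its partner Tlr6 rose from a median of 5.18 to 16.8 RPKM with overlap. Of 17 adaptor and kinase genes, 2 rose, 0 fell and 15 did not pass the test, with a median of 0.82. The share that rose was 11.8%, against 3.68% of all genes. Those that rose were Irak3, which encodes the inhibitory kinase IRAK-M (median 1.03 to 4.71 RPKM), and Ikbke, a kinase of the interferon arm (median 0 to 2.02 RPKM). Myd88 had median levels of 5.02 RPKM in naïve and 34.1 at 4 h and missed the threshold (log2 fold change 2.29 ± 0.76 (SE), adjusted p = 0.056), although without naïve retina 1 or 7 or EIU4h retina 2 its adjusted p was 0.020 to 0.037. Ticam1, which encodes TRIF, had medians of 0.182 and 2.39 RPKM (log2 fold change 1.00 ± 0.37 (SE), adjusted p = 0.094), and without naïve retina 1 or EIU4h retina 2 or 3 its adjusted p was 0.026 to 0.029.

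Most tested NF-kappa B genes rose, inhibitors and subunits among them. Of 14 subunit and inhibitor genes, 10 rose, 0 fell and 4 did not pass the test, with a median of 2.97. Over the list, the median deviation from the naïve mean was 1.49 to 4.64 at 4 h against -0.95 to 1.21 in naïve retinas, so the groups did not overlap. Nfkbia (GRCm38 chr12:55489410-55492647), which encodes the inhibitor I-kappa-B-alpha that is itself a target of the pathway, rose from a range of 6.49 to 113 RPKM (median 50.8) to one of 508 to 2846 RPKM (median 1481) (log2 fold change 4.82 ± 0.49 (SE), adjusted p = 1.3e-08). Nfkbiz, the nuclear co-activator I-kappa-B-zeta, rose from a range of 0.0224 to 11.6 RPKM (median 1.21) to one of 50.6 to 113 RPKM (median 81.8) (log2 fold change 4.73 ± 0.50 (SE), adjusted p = 3.0e-08). Neither showed overlap between the groups. Nfkbib rose from a median of 7.49 to 104 RPKM, and Bcl3 and Nfkbid, which encode nuclear relatives of the inhibitors, from 0.0227 to 16.9 RPKM and 1.42 to 48.6 RPKM. The subunit gene Nfkb1 rose less, from a range of 2.05 to 11.5 RPKM (median 4.95) to one of 10.5 to 21.5 RPKM (median 11.8) (log2 fold change 1.34 ± 0.31 (SE), adjusted p = 0.0037). Rela, the main transactivating subunit, was at 0.0432 to 44.4 RPKM (median 2.70) and 3.42 to 101 RPKM (median 15.9) and was not called (log2 fold change 1.93 ± 0.71 (SE), adjusted p = 0.091, 95% interval 0.49 to 3.37), and without naïve retina 1 its adjusted p was 0.018. In experiment 1 alone, with 3 EIU4h retinas, 5 of the 14 genes passed, and in experiment 2 alone 10 did.

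The sequence before the start of Nfkbia is shown because matches to 2 of the 4 motifs searched lie in it. These were GGNNTTTCC (letters of a kappa B type site), GAAANNGAA (letters of an interferon-stimulated response element), TGANTCA (AP-1 type) and GAGGAAGT (ETS type, as bound by PU.1), each read on both strands. The window holds the 250 bases before the RefSeq start on the minus strand of GRCm38.p6 (chr12:55492648-55492897), and capitals mark the matches, here 2 of the kappa B type and 1 of the interferon type. The same windows of Il12b and Tnf, which are not shown, held no match to any of the 4, which says only that these letters are not in them.
Nfkbia upstream: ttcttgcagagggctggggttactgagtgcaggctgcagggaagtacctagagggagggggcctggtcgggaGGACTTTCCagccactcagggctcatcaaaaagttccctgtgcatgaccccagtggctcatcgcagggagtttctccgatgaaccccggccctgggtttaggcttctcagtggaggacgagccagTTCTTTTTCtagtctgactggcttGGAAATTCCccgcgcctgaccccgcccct
Among the RefSeq windows of 300 bases around gene starts, the kappa B letters were found in 17.5% of 435 windows of up-regulated DEGs, in 5.19% of 559 windows of down-regulated DEGs, in 6.42% of 11540 windows of all genes tested and in 5.82% of all 32851 windows. For the interferon letters these shares were 14.5%, 6.08%, 7.40% and 8.56%, for the AP-1 letters 10.6%, 4.11%, 5.00% and 7.81%, and for the ETS letters 5.06%, 4.29%, 3.28% and 3.20%. Windows matched 342 of the 485 up-regulated and 413 of the 578 down-regulated DEGs by symbol. A match of letters is a description and not evidence of a bound site.

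Feedback genes that shut NF-kappa B signalling down were among those that rose. Among 13 genes of the A20, TNIP, TRAF and BIRC families, 8 rose, 0 fell and 5 did not pass the test, with a median of 1.51. Tnfaip3 (GRCm38 chr10:19000910-19015657), which encodes the ubiquitin-editing enzyme A20, rose from a range of 0.0487 to 9.17 RPKM (median 5.19) to one of 85 to 171 RPKM (median 113) (log2 fold change 4.67 ± 0.51 (SE), adjusted p = 6.6e-08). Its 6 values at 4 h lay within a narrow range far above the naïve ones. Its partners Tnip1, Tnip2 and Tnip3 rose from medians of 0.877 to 16.8 RPKM, 6.94 to 66.6 RPKM and 0.00434 to 36.7 RPKM. The rise of Tnip3 differed between the experiments, at 6.40 in experiment 1 and 2.34 in experiment 2 (adjusted p of the difference = 0.012). Tnfaip2, a TNF-induced gene of vesicle and membrane biology, had the largest change of the list, from a range of 0 to 4.80 RPKM (median 1.28) to one of 158 to 455 RPKM (median 219.6) (log2 fold change 6.74 ± 0.34 (SE), adjusted p = 2.2e-15).

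Many immediate early genes and phosphatases that end MAP kinase signals rose. Of 18 immediate early genes tested, 11 rose, 1 fell and 6 did not pass the test (median 1.73). Ier3, a survival-promoting early response gene, rose from a range of 0 to 28.4 RPKM (median 6.50) to one of 36.1 to 829 RPKM (median 222) (log2 fold change 5.03 ± 0.84 (SE), adjusted p = 8.8e-05), Ier2 from a median of 11 to 297 RPKM, and Batf, an AP-1 partner of immune cells, from 3.64 to 120.2 RPKM. These 3 did not overlap with naïve values. Junb rose from a range of 0.878 to 143 RPKM (median 6.11) to one of 22.2 to 1039 RPKM (median 172) and Fos from a range of 0 to 9.01 RPKM (median 0.570) to one of 0.258 to 52.4 RPKM (median 15.6), both with overlap between the groups (adjusted p = 0.0015 and 0.0050). Klf2, a factor that restrains myeloid activation, fell from a range of 1.87 to 24.7 RPKM (median 8.55) to one of 0 to 4.06 RPKM (median 1.98) (log2 fold change -1.76 ± 0.49 (SE), adjusted p = 0.018), and without EIU4h retina 2 or 3 its adjusted p was 0.063 to 0.071. In experiment 1 alone 5 of the 18 passed the test for an increase. Of 16 MAP kinase and phosphatase genes, 7 rose, 2 fell and 7 did not pass the test (median 0.65). Dusp1 (GRCm38 chr17:26505590-26562128), which dephosphorylates p38 and JNK, rose from a range of 0 to 8.11 RPKM (median 3.47) to one of 178 to 1747 RPKM (median 449) (log2 fold change 7.29 ± 0.67 (SE), adjusted p = 2.2e-09). Dusp2 rose from a range of 0 to 0.683 RPKM (median 0) to one of 52.3 to 455 RPKM (median 78) (log2 fold change 6.85 ± 0.49 (SE), adjusted p = 9.6e-12) and Dusp5 from a median of 0.0536 to 7.22 RPKM, all without overlap. The phosphatase gene Dusp6, which is selective for ERK, went the other way, from a range of 36.1 to 94.7 RPKM (median 54) to one of 0.0277 to 8.14 RPKM (median 4.30) (log2 fold change -3.90 ± 0.41 (SE), adjusted p = 3.2e-08), and all 4 h values lay below all naïve ones. Map3k8, the kinase TPL2 that links TLR signals to ERK, rose from a range of 2.97 to 15.8 RPKM (median 5.06) to one of 33.2 to 231 RPKM (median 153) without overlap. Mapk14, which encodes p38-alpha, fell from a range of 6.92 to 33.8 RPKM (median 12) to one of 0 to 7.05 RPKM (median 3.52) (log2 fold change -1.88 ± 0.44 (SE), adjusted p = 0.0046), where the lowest value is a listed 0 in EIU4h retina 3.

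The largest single change was that of a cytokine gene. Of 18 tested, 13 rose, 0 fell and 5 did not pass the test, with a median of 2.94, and the list's deviation from the naïve mean was 2.20 to 4.64 at 4 h against -0.78 to 0.81 in naïve retinas. With equal summed RPKM, and also without naïve retina 1 and EIU4h retina 1, the counts were 12 and 1, the decrease being that of Il18, named after its values were seen. It stood at a log2 fold change of -0.90 and an adjusted p of 0.077 in the limma fit reported. Il12b (GRCm38 chr11:44400063-44414033), the p40 chain shared by interleukin-12 and interleukin-23, was listed at 0 or up to 0.0799 RPKM in naïve retinas and at 2333 to 11307 RPKM (median 6151) at 4 h. Its log2 fold change of 12.50 ± 0.49 (SE), adjusted p = 3.1e-18 depends on the added 1 RPKM, since the naïve values are at or near 0. Tnf rose from a range of 0 to 4.29 RPKM (median 0.364) to one of 291 to 3291 RPKM (median 1514) (log2 fold change 9.26 ± 0.58 (SE), adjusted p = 4.6e-13). Il1b rose from a range of 0 to 4.57 RPKM (median 0.443) to one of 319.5 to 3968 RPKM (median 889.5) (log2 fold change 8.91 ± 0.65 (SE), adjusted p = 1.2e-11), and Il1a, unlike Il1b already present in naïve microglia, from a range of 0.595 to 102 RPKM (median 74.6) to one of 1199 to 9043 RPKM (median 5456) (log2 fold change 6.52 ± 0.66 (SE), adjusted p = 1.2e-08). None of these 4 genes overlapped between the groups. Il1rn, the natural antagonist of the interleukin-1 receptor, rose from a range of 0 to 1.22 RPKM (median 0) to one of 6.47 to 338 RPKM (median 187) (log2 fold change 6.22 ± 0.60 (SE), adjusted p = 5.7e-09), and its 4 h values spread widely. Its change was 7.93 in experiment 1 and 4.40 in experiment 2. Ifnb1 (GRCm38 chr4:88522025-88522774), which encodes interferon-beta, rose from a range of 0 to 19.3 RPKM (median 0) to one of 9.71 to 522 RPKM (median 167) (log2 fold change 5.64 ± 0.72 (SE), adjusted p = 1.1e-06). The highest naïve value lay above the lowest 4 h value, and the change was 3.72 in experiment 1 and 7.61 in experiment 2. Il6 rose from a range of 0.0484 to 15.2 RPKM (median 7.66) to one of 7.97 to 123 RPKM (median 45.5) (log2 fold change 2.48 ± 0.56 (SE), adjusted p = 0.0029), and 9 of the 10 naïve retinas had at least 3.10 RPKM. Il10, an anti-inflammatory cytokine, was at 0 to 0.604 RPKM (median 0) and 0 to 148 RPKM (median 2.13) (log2 fold change 2.72 ± 0.77 (SE), adjusted p = 0.020). It changed by 0.29 in experiment 1 and 5.11 in experiment 2, and without EIU4h retina 5 or 6 its adjusted p was 0.094 to 0.10. Csf1, the ligand of the microglial survival receptor, rose from a median of 0.357 to 3.77 RPKM.

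Most chemokine genes rose. Of 20 tested, 15 rose, 1 fell and 4 did not pass the test, with a median of 3.10. The shares were 75% and 5%, against 3.68% and 4.39% of all genes. In all 15 that rose every EIU4h retina lay above every naïve one, which held for 1.65% of all genes tested. Over the list, the median deviation from the naïve mean was 2.54 to 3.93 at 4 h against -0.37 to 0.32 in naïve retinas. Ccl3 and Ccl4, neighbouring genes of the CC chemokine family, rose from a range of 39.8 to 326 RPKM (median 178) to one of 9645 to 40449 RPKM (median 23756) (log2 fold change 7.21 ± 0.44 (SE), adjusted p = 4.3e-13) and from a range of 14.8 to 228 RPKM (median 52.3) to one of 13241 to 41525 RPKM (median 29680) (log2 fold change 8.73 ± 0.71 (SE), adjusted p = 1.4e-10). Ccl12, a murine monocyte attractant, rose from the highest naïve level of the list, 163 to 2758 RPKM (median 811), to 10196 to 39979 RPKM (median 29543) (log2 fold change 4.89 ± 0.45 (SE), adjusted p = 1.8e-09). The closely related Ccl7 rose from a range of 0 to 50.1 RPKM (median 8.90) to one of 219 to 1527 RPKM (median 537). Ccl12 and Ccl2 have similar sequences, so the division of reads between them is uncertain. Among attractants of neutrophils, Cxcl2 rose from a range of 0 to 0.817 RPKM (median 0.0271) to one of 6.77 to 781 RPKM (median 143) (log2 fold change 6.21 ± 0.61 (SE), adjusted p = 7.4e-09), and Cxcl1 from a range of 0 to 0.335 RPKM (median 0) to one of 0.877 to 134 RPKM (median 23.7) (log2 fold change 3.97 ± 0.55 (SE), adjusted p = 3.8e-06). The rise of Cxcl1 was 1.85 in experiment 1 and 6.09 in experiment 2, and this difference passed the test (adjusted p = 0.00019). Ccl6 was the exception and fell from a range of 168 to 482 RPKM (median 254) to one of 76.4 to 145 RPKM (median 93.2) without overlap (log2 fold change -1.47 ± 0.26 (SE), adjusted p = 0.00020). Cxcl10, a ligand of CXCR3 induced by interferons, rose from a range of 0 to 40.6 RPKM (median 1.13) to one of 1219 to 2566 RPKM (median 1394) (log2 fold change 8.51 ± 0.79 (SE), adjusted p = 2.7e-09). The 250 bases before its RefSeq start (GRCm38.p6, minus strand, chr5:92348890-92349139) are shown because 1 match each of the interferon, kappa B and AP-1 letters lies in them, in capitals and in this order.
Cxcl10 upstream: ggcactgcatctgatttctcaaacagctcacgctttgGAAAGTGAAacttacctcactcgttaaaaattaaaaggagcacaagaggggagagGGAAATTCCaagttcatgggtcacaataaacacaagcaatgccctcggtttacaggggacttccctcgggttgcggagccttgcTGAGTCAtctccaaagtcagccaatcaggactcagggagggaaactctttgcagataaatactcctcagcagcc

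Of 6 chemokine receptor genes tested, 3 rose, 1 fell and 2 did not pass the test. Ccrl2, a non-signalling receptor that presents chemerin, rose from a range of 0 to 19.4 RPKM (median 4.20) to one of 88.9 to 409.5 RPKM (median 299) (log2 fold change 5.61 ± 0.60 (SE), adjusted p = 4.3e-08). Ccr7, the receptor that guides cells to lymphoid tissue, was listed at 0 in all 10 naïve retinas and at 15.9 to 179.8 RPKM (median 35) at 4 h (adjusted p = 2.5e-10). Cxcr5 rose within low levels, from a median of 0.0845 to 2.51 RPKM. Cx3cr1 (GRCm38 chr9:119901616-120069879), the fractalkine receptor whose promoter drove the Cre allele, fell from a range of 45.2 to 318 RPKM (median 76.2) to one of 6.37 to 35.5 RPKM (median 23.6) (log2 fold change -2.05 ± 0.40 (SE), adjusted p = 0.00069), and the 4 h values lay below all naïve ones. Reads of the intact and the altered allele cannot be told apart.

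Several molecules of contact with T cells rose. Of 22 TNF superfamily and co-stimulatory genes, 13 rose, 3 fell and 6 did not pass the test (median 1.62). Tnfsf9, the ligand of the T-cell receptor 4-1BB, reached 1687 to 7486 RPKM (median 5449) from 0 to 8.64 RPKM (median 3.31) (log2 fold change 10.55 ± 0.70 (SE), adjusted p = 1.2e-12). Cd83, a maturation marker of dendritic cells, rose from a range of 1.92 to 101 RPKM (median 36.1) to one of 633 to 4284 RPKM (median 2077) (log2 fold change 5.81 ± 0.54 (SE), adjusted p = 2.6e-09). Cd40, the receptor for CD40 ligand of T cells, rose from a range of 0 to 1.79 RPKM (median 0.0474) to one of 6.20 to 84.7 RPKM (median 41.9) (log2 fold change 4.64 ± 0.44 (SE), adjusted p = 4.2e-09), by 6.23 in experiment 1 and 2.93 in experiment 2, which differed (adjusted p = 0.027). The 4 h values of all 3 genes lay above the naïve range. Cd274, which encodes the inhibitory ligand PD-L1, rose from a range of 0 to 5.98 RPKM (median 2.55) to one of 6.50 to 184 RPKM (median 50.4) and the death receptor gene Fas from a range of 0 to 3.93 RPKM (median 0.845) to one of 4.49 to 213 RPKM (median 59.4), and both were more variable at 4 h. Tnfsf8, the ligand of CD30, fell from a median of 3.42 to 0.284 RPKM (adjusted p = 0.0092).

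Most tested inhibitors of cytokine signalling and of cytokine mRNA rose. Of 16 SOCS and mRNA decay genes, 9 rose, 1 fell and 6 did not pass the test (median 1.59). Socs3, which blocks signalling by interleukin-6 family receptors, rose from a range of 0 to 15.8 RPKM (median 0.237) to one of 29.2 to 724 RPKM (median 56.2) (log2 fold change 5.66 ± 0.59 (SE), adjusted p = 2.8e-08), and naïve retina 1 held the highest naïve value. Zfp36, which encodes tristetraprolin, a protein that targets Tnf mRNA for decay, rose from a range of 0.194 to 21 RPKM (median 3.43) to one of 11.2 to 242 RPKM (median 87.4) with overlap. The RNase genes N4bp1 and Zc3h12c rose from medians of 1.98 to 14.1 RPKM and 0.969 to 5.74 RPKM, and Socs2 from 0.0572 to 4.79 RPKM, each without overlap. Zfp36l2, a relative of Zfp36, fell from a range of 26 to 264 RPKM (median 75.9) to one of 6.45 to 22.5 RPKM (median 15.9) (log2 fold change -2.49 ± 0.58 (SE), adjusted p = 0.0040), and all EIU4h retinas lay below all naïve ones. In experiment 1 alone 4 genes of this list passed the test for an increase and in experiment 2 alone 9.

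Part of the interferon-stimulated genes rose at 4 h, and the retinas differed. Of 50 interferon-stimulated genes tested, 19 rose, 0 fell and 31 did not pass the test, with a median of 1.37, and 46 of the 50 had a positive log2 fold change. The list's median deviation was -0.04 to 2.66 at 4 h against -0.57 to 0.60 in naïve retinas. Retina by retina the 4 h values were 1.52, 2.66, 2.32, 0.61, 1.27 and -0.04, so EIU4h retina 6 lay within the naïve range and EIU4h retina 4 just above it. With experiment 1 alone 20 genes rose and with experiment 2 alone 11, with medians of 2.58 and 0.23, a difference that was not tested for the list. Ifit1, an antiviral RNA-binding protein, rose from a range of 0 to 16.1 RPKM (median 2.68) to one of 30.9 to 849 RPKM (median 206) (log2 fold change 5.91 ± 0.72 (SE), adjusted p = 4.0e-07). Its change of 8.34 in experiment 1 and 2.94 in experiment 2 differed between the experiments (adjusted p = 0.027). Isg15, a ubiquitin-like modifier, rose from a range of 0 to 18.5 RPKM (median 4.23) to one of 56.6 to 528 RPKM (median 195) (log2 fold change 4.88 ± 0.62 (SE), adjusted p = 1.1e-06). The guanylate-binding protein genes Gbp2 and Gbp5, whose products act on intracellular bacteria, rose from a range of 0 to 4.41 RPKM (median 1.91) to one of 14.7 to 206 RPKM (median 78.7) and from a range of 0 to 1.14 RPKM (median 0.436) to one of 5.36 to 43.6 RPKM (median 25.6). Oasl1, a regulator of interferon translation, rose from a median of 0.246 to 18.3 RPKM. The lowest 4 h value of each of these 5 genes lay above the highest naïve value. Rescaling to equal summed RPKM left 15 genes called and quantile normalisation gave 27. The 250 bases before the RefSeq start of Isg15 (GRCm38.p6, minus strand, chr4:156200819-156201068) are shown because 3 overlapping matches to the interferon letters and 1 to the kappa B letters lie in them, in capitals.
Isg15 upstream: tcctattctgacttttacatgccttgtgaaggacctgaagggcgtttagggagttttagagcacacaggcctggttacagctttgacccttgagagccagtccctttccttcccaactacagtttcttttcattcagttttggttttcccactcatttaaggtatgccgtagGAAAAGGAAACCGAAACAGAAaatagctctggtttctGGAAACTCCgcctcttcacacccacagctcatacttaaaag

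Mir155hg, the host transcript of the inflammatory microRNA miR-155, was at 0 to 0.982 RPKM (median 0) in naïve retinas and 330.0 to 1826 RPKM (median 552) at 4 h (log2 fold change 9.32 ± 0.47 (SE), adjusted p = 2.2e-15), with no overlap. The values are those of the host transcript, and the mature microRNA was not measured. Its main mature product is shown because this transcript is its precursor, as RefSeq gives it (GRCm38.p6, plus strand, chr16:84714143-84714165), with the seed, bases 2 to 8, in capitals.
mmu-miR-155-5p: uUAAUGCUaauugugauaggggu

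**Figure D3:**
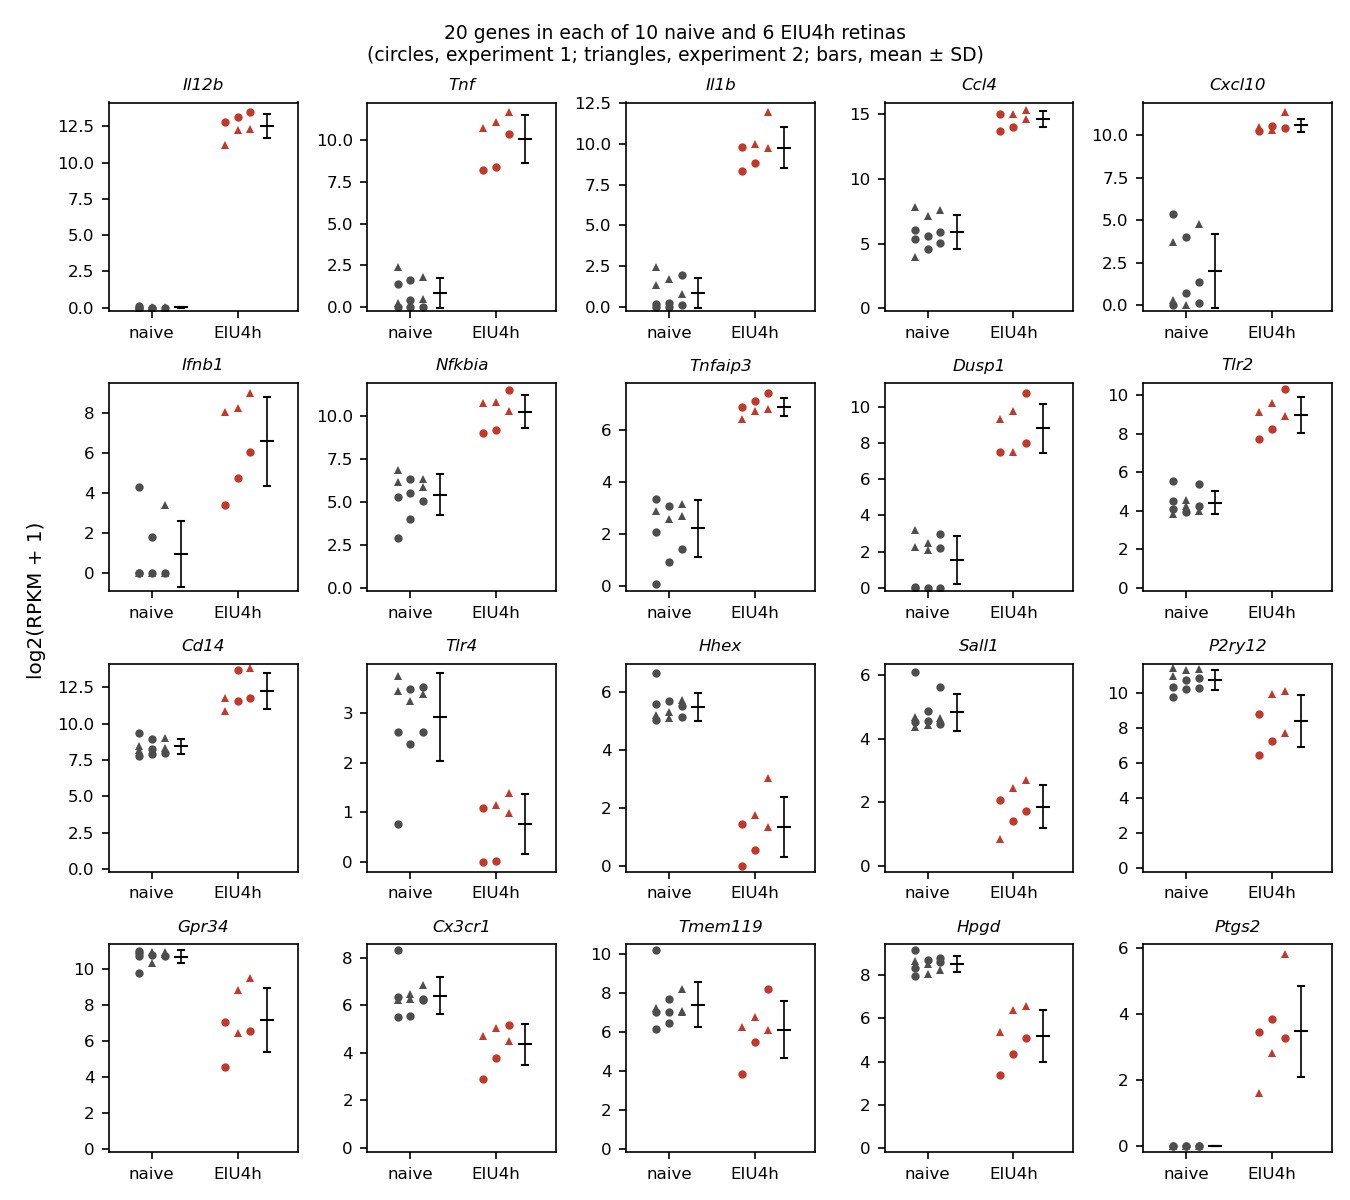
Level of 20 genes in log2(RPKM + 1) (vertical axes) in each of 10 naïve (grey) and 6 EIU4h retinas (red), with circles for experiment 1, triangles for experiment 2 and bars for the mean ± SD. Il12b, Tnf, Ccl4 and Nfkbia separate the groups fully, P2ry12, Tlr4 and Ifnb1 overlap in part and Tmem119 overlaps widely.

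A large part of the genes of resting microglia fell. Of 34 homeostatic genes tested, 0 rose, 17 fell and 17 did not pass the test, with a median of -1.25 against -0.11 over all genes, and 32 of the 34 had a negative log2 fold change. The list's deviation was -2.42 to -0.50 at 4 h against -0.40 to 0.90 in naïve retinas, and 17 genes fell without naïve retina 1 and EIU4h retina 1. P2ry12 (GRCm38 chr3:59216272-59262871), the ADP receptor that steers microglial processes, fell from a range of 866 to 2714 RPKM (median 1769) to one of 85.3 to 1076 RPKM (median 328) (log2 fold change -2.35 ± 0.43 (SE), adjusted p = 0.00032). Its highest 4 h values lay within the naïve range. Its neighbour P2ry13 fell from a range of 81 to 406 RPKM (median 277) to one of 2.37 to 127 RPKM (median 37.2) (log2 fold change -2.70 ± 0.60 (SE), adjusted p = 0.0027), also with overlap. These 2 were the only genes called among 12 purinergic receptors and ectonucleotidases, whose median was 0.27 and mean -0.06, with a median of -0.18 in experiment 2 alone. Gpr34, a lysophospholipid receptor on the X chromosome, fell from a range of 902 to 2079.9 RPKM (median 1816) to one of 22.6 to 723 RPKM (median 115) (log2 fold change -3.54 ± 0.50 (SE), adjusted p = 6.2e-06) without overlap. Slco2b1, an organic anion transporter, and Lair1, an inhibitory collagen receptor, fell from medians of 30.4 to 6.80 RPKM and 82.1 to 11.8 RPKM, both without overlap. Mertk, a receptor tyrosine kinase for the uptake of dying cells, fell from a range of 23.1 to 98.2 RPKM (median 47.4) to one of 3.10 to 14.2 RPKM (median 9.29) (log2 fold change -2.31 ± 0.31 (SE), adjusted p = 2.6e-06). Tmem119, a widely used microglial marker, was at 70.5 to 1167 RPKM (median 130.0) and 13.3 to 296 RPKM (median 71.4) and was not called (log2 fold change -1.29 ± 0.56 (SE), adjusted p = 0.17, 95% interval -2.42 to -0.15). Csf1r, the survival receptor for CSF1 and interleukin-34, was not called either (log2 fold change -0.85 ± 0.32 (SE), adjusted p = 0.096, 95% interval -1.49 to -0.21). With equal summed RPKM Csf1r passed, at -1.13. Naïve retina 1 had the highest naïve values of Cx3cr1, Tmem119 and Csf1r.

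Several transcription factors that define microglia fell. Of 23 tested, 2 rose, 9 fell and 12 did not pass the test (median -0.79). Hhex (GRCm38 chr19:37434810-37440731), a homeobox repressor, fell from a range of 31.5 to 99.5 RPKM (median 42) to one of 0 to 7.14 RPKM (median 1.62) (log2 fold change -4.15 ± 0.39 (SE), adjusted p = 3.8e-09). Sall1, the zinc-finger factor that marks microglia among macrophages, fell from a range of 19.7 to 67.8 RPKM (median 23.3) to one of 0.771 to 5.42 RPKM (median 2.76) (log2 fold change -2.96 ± 0.31 (SE), adjusted p = 3.2e-08). Lyl1 and Fli1, both haematopoietic factors, fell from medians of 11.7 to 0.787 RPKM and 19.2 to 2.78 RPKM. In these 4 genes every EIU4h retina lay below every naïve one. Cebpb, a factor of inflammatory macrophages, rose from a range of 6.25 to 262 RPKM (median 32) to one of 63.6 to 1587 RPKM (median 262) with overlap (log2 fold change 2.94 ± 0.69 (SE), adjusted p = 0.0046). Runx1, a regulator of myeloid cells, had a log2 fold change of 1.06 ± 0.33 (SE), adjusted p = 0.039, and without naïve retina 2, 6, 7, 8 or 9 or EIU4h retina 1, 2, 3 or 5 its adjusted p was 0.060 to 0.15. With equal summed RPKM its log2 fold change was 0.81, under the 2-fold threshold. Spi1, which encodes PU.1, was at 7.54 to 104 RPKM (median 46.2) and 30.1 to 166 RPKM (median 124) (log2 fold change 1.40 ± 0.64 (SE), adjusted p = 0.20, 95% interval 0.10 to 2.70), and Irf8 at 5.03 to 89.1 RPKM (median 15.1) and 0.467 to 39.3 RPKM (median 9.42) (log2 fold change -0.79 ± 0.55 (SE), adjusted p = 0.46, 95% interval -1.91 to 0.34), and neither was called. Among 14 genes of TGF-beta signalling, the pathway that maintains microglial identity, 2 rose, 1 fell and 11 did not pass the test. The shares were 14.3% and 7.14%, against 3.68% and 4.39% of all genes, and the decrease is that of 1 gene. The receptor gene Tgfbr1 fell from a range of 59.1 to 142 RPKM (median 107) to one of 28.7 to 95.5 RPKM (median 47.9) (log2 fold change -1.05 ± 0.29 (SE), adjusted p = 0.018), with -1.59 in experiment 1 and -0.47 in experiment 2. Without EIU4h retina 1 or 2 its adjusted p was 0.063 or 0.067, and without naïve retina 6 its log2 fold change was -0.99, under 2-fold. Tgif1 and Skil, repressors of SMAD-driven transcription, rose from medians of 6.12 to 28.2 RPKM and 27.3 to 76.1 RPKM (adjusted p = 0.0011 and 0.0070). The median of this list was 0.12 and turned to -0.11 with equal summed RPKM.

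**Figure D4:**
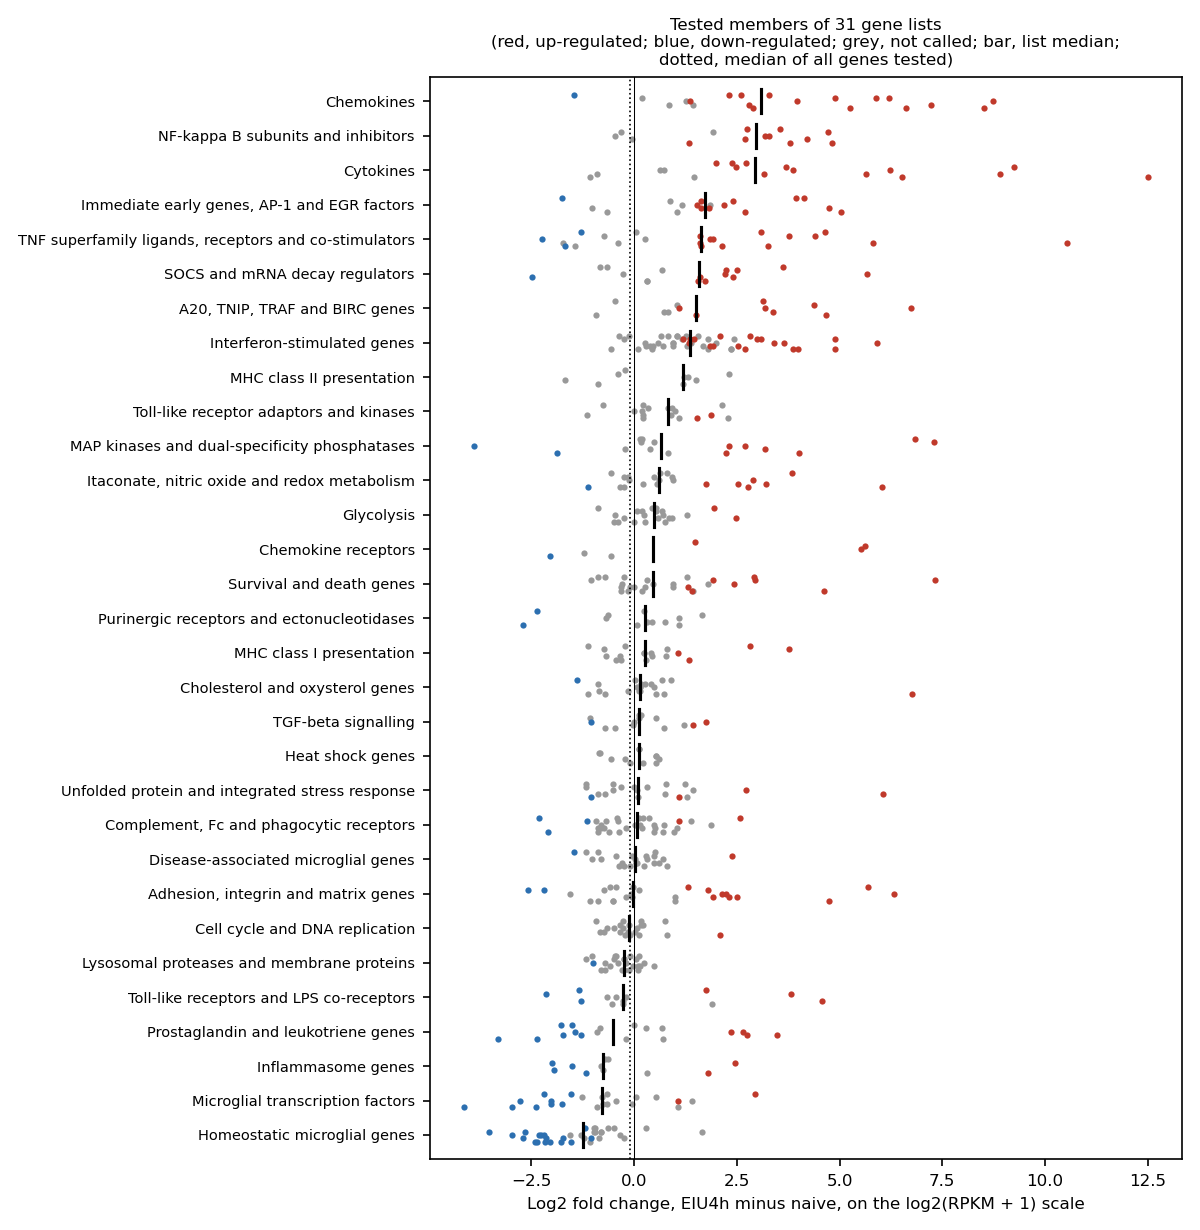
Log2 fold change at 4 h (horizontal axis, on the log2(RPKM + 1) scale) of each tested member of 31 gene lists (vertical axis, ordered by their median), in red for up-regulated DEGs, blue for down-regulated DEGs and grey for genes not called, with a bar at the list median and a dotted line at the median of all genes (-0.11). Chemokines lie highest with a median of 3.10 and homeostatic genes lowest with -1.25.

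Genes of the disease-associated state, in which microglia of degenerating tissue express phagocytic and lipid genes, were called about as often as all genes. Of 24 tested, 1 rose, 1 fell and 22 did not pass the test (median 0.03), and the shares called, 1 of 24 in each direction, were near the 3.68% and 4.39% of all genes. Those called were Csf1 and Ccl6, both described above. Apoe, the lipid carrier at the head of that signature, was at 196 to 4820.4 RPKM (median 1658) and 824 to 2299.8 RPKM (median 1155) (log2 fold change -0.10 ± 0.60 (SE), adjusted p = 0.95, 95% interval -1.31 to 1.12). Of 32 complement, Fc and phagocytic genes, 2 rose, 3 fell and 27 did not pass the test (median 0.07), that is 6.25% and 9.38% against 3.68% and 4.39% of all genes. C5ar1, the receptor for the anaphylatoxin C5a, rose from a range of 11.4 to 126 RPKM (median 50.5) to one of 71.3 to 812 RPKM (median 332) (log2 fold change 2.59 ± 0.55 (SE), adjusted p = 0.0018), while C5ar2, the second C5a receptor, fell from a range of 1.74 to 25.8 RPKM (median 3.88) to one of 0.126 to 0.831 RPKM (median 0.499) (log2 fold change -2.10 ± 0.50 (SE), adjusted p = 0.0055). C1qb, a chain of the first complement component, was at 915 to 5949 RPKM (median 4541) and 2337 to 6752 RPKM (median 5007) and was not called (log2 fold change 0.51 ± 0.48 (SE), adjusted p = 0.60). Of 26 lysosomal genes, 0 rose, 1 fell and 25 did not pass the test (median -0.25), and Ctss, their most abundant protease, had a log2 fold change of -0.10 ± 0.20 (SE), adjusted p = 0.84. The share of lysosomal genes that fell, 3.85%, was near the 4.39% of all genes. The medians of the disease-associated and complement lists turned negative with equal summed RPKM, at -0.15 and -0.16.

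Antigen presentation genes showed a partial change. Of 18 genes of MHC class I presentation, 4 rose, 0 fell and 14 did not pass the test (median 0.27). The share that rose was 22.2%, against 3.68% of all genes. H2-K1, a classical class I chain, rose from a range of 37.7 to 188 RPKM (median 81.9) to one of 149 to 491 RPKM (median 203) (log2 fold change 1.34 ± 0.31 (SE), adjusted p = 0.0035). H2-Q6 and H2-Q7, non-classical class I genes, rose from medians of 3.59 to 62.3 RPKM and 2.77 to 20.7 RPKM without overlap, but they are near-identical copies and the division of reads between them is uncertain. Of 9 class II genes none was called by limma or in the untransformed fit, and 2 had an unadjusted p under 0.05. Their median was 1.19, with 1.68 in experiment 1 and -0.14 in experiment 2, and the list's deviation spread from -3.11 to 1.20 among naïve retinas alone.

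Lipid mediator genes both rose and fell. Of 18 prostaglandin and leukotriene genes, 4 rose, 7 fell and 7 did not pass the test (median -0.51). Ptgs2, the inducible cyclo-oxygenase COX-2, was listed at 0 in all naïve retinas and at 2.01 to 56 RPKM (median 9.27) at 4 h (adjusted p = 5.7e-08), whereas Ptgs1, the constitutive form, fell from a range of 43 to 228 RPKM (median 68.6) to one of 0.402 to 37.8 RPKM (median 24.3) (log2 fold change -2.36 ± 0.48 (SE), adjusted p = 0.0012). Ptges, which makes prostaglandin E2, rose from a range of 0 to 0.334 RPKM (median 0) to one of 0.593 to 20.9 RPKM (median 7.25), and Ptger4, a prostaglandin E2 receptor, from a range of 0.0283 to 0.572 RPKM (median 0.0975) to one of 2.23 to 24.4 RPKM (median 6.12) (log2 fold change 2.76 ± 0.33 (SE), adjusted p = 3.3e-07). Hpgd, the enzyme that inactivates prostaglandins, fell from a range of 247 to 569 RPKM (median 380.5) to one of 9.53 to 93.4 RPKM (median 36.9) (log2 fold change -3.30 ± 0.36 (SE), adjusted p = 6.2e-08), so each EIU4h retina lay below every naïve one. Ltc4s and Alox5ap, both needed for leukotriene synthesis, fell from a range of 225 to 821 RPKM (median 331) to one of 50.2 to 198 RPKM (median 115) and from a range of 139 to 661 RPKM (median 368) to one of 65.2 to 230.4 RPKM (median 128) (adjusted p = 0.0013 and 0.0042), the first without overlap. Ptafr, the receptor for platelet-activating factor, rose from a median of 6.42 to 56.5 RPKM. Among 21 cholesterol and oxysterol genes, 1 rose, 1 fell and 19 did not pass the test, so that the share in each direction, 4.76%, was near the 3.68% and 4.39% of all genes. The one that rose was Ch25h, which makes the immune oxysterol 25-hydroxycholesterol, from a range of 0 to 5.44 RPKM (median 0.553) to one of 69.7 to 656 RPKM (median 257) (log2 fold change 6.76 ± 0.66 (SE), adjusted p = 7.8e-09), without overlap. Soat1, which esterifies cholesterol, was the one that fell (log2 fold change -1.40 ± 0.40 (SE), adjusted p = 0.021), and without EIU4h retina 6 its adjusted p was 0.060.

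Acod1 and Slc7a11 were among the metabolic genes that rose. Of 22 genes of itaconate, nitric oxide and redox metabolism, 7 rose, 1 fell and 14 did not pass the test (median 0.61). Acod1, which makes itaconate from an intermediate of the citric acid cycle, rose from a range of 0 to 9.59 RPKM (median 0) to one of 57.6 to 149 RPKM (median 71.9) (log2 fold change 6.03 ± 0.45 (SE), adjusted p = 1.8e-11). Slc7a11, the cystine importer for glutathione synthesis, rose from a range of 0 to 0.931 RPKM (median 0.0788) to one of 8.11 to 38 RPKM (median 12.3) (log2 fold change 3.84 ± 0.28 (SE), adjusted p = 1.2e-11). Gch1, the first enzyme of tetrahydrobiopterin synthesis, Cybb, the catalytic subunit of the phagocyte NADPH oxidase, and Sod2, the mitochondrial superoxide dismutase, rose from medians of 0.772 to 13.6 RPKM, 8.46 to 51.3 RPKM and 22.8 to 149.9 RPKM. None of these 5 genes overlapped between the groups. Of 22 glycolysis genes, 2 rose, 0 fell and 20 did not pass the test (median 0.48). The share that rose was 9.09%, against 3.68% of all genes. Pfkfb3, which makes the main activator of phosphofructokinase, rose from a range of 0.741 to 9.08 RPKM (median 4.38) to one of 13.3 to 21.4 RPKM (median 19.9) (log2 fold change 1.94 ± 0.30 (SE), adjusted p = 3.3e-05), and Slc2a6, a lysosomal hexose transporter, from a median of 0.880 to 7.21 RPKM. No gene was called among 85 cytosolic ribosomal protein genes (median 0.14), 38 proteasome subunits (0.21), 82 nuclear genes of oxidative phosphorylation (-0.40), 13 mitochondrially encoded genes (-0.16) or 12 heat shock genes (0.12) in the limma fit. At an unadjusted p under 0.05 there were 3, 3, 12, 0 and 1 genes, and the untransformed fit called none. With equal summed RPKM 10 of the oxidative phosphorylation genes were called lower, and the ribosomal, proteasome, heat shock and cholesterol medians turned to -0.14, -0.07, -0.16 and -0.01.

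Several survival and death genes rose, while several inflammasome parts fell. Of 27 survival and death genes, 8 rose, 0 fell and 19 did not pass the test (median 0.46). Gadd45b, a stress gene that feeds into p38 signalling, rose from a range of 0 to 2.54 RPKM (median 0) to one of 72.3 to 490.2 RPKM (median 232) (log2 fold change 7.32 ± 0.55 (SE), adjusted p = 1.8e-11), and Cdkn1a, the cell cycle inhibitor p21, from a range of 0.0505 to 14.1 RPKM (median 8.48) to one of 71.5 to 326 RPKM (median 127) (log2 fold change 4.63 ± 0.63 (SE), adjusted p = 3.2e-06). Bcl2a1a and Bcl2a1d, anti-apoptotic genes of the BCL2 family, rose from medians of 129 to 772 RPKM and 71.2 to 601 RPKM without overlap, with the reads of these near-identical copies divided uncertainly. Pmaip1, of the same list, rose from a range of 0 to 7.06 RPKM to one of 6.58 to 29.2 RPKM, with overlap. Of 11 inflammasome genes, 2 rose, 4 fell and 5 did not pass the test (median -0.76). The shares were 18.2% and 36.4%, against 3.68% and 4.39% of all genes. The sensor gene Nlrp3 rose from a range of 1.51 to 8.51 RPKM (median 2.68) to one of 2.73 to 40.4 RPKM (median 17) (log2 fold change 1.79 ± 0.43 (SE), adjusted p = 0.0057) and Casp4, the caspase that binds cytosolic LPS and is also known as caspase-11 in mice, from a range of 1.87 to 26.1 RPKM (median 6.77) to one of 22.9 to 77.4 RPKM (median 32.8) (log2 fold change 2.46 ± 0.39 (SE), adjusted p = 4.2e-05), both with overlap. Pycard, which encodes the adaptor ASC, fell from a range of 37 to 157 RPKM (median 81.1) to one of 8.66 to 46.5 RPKM (median 20.1) (log2 fold change -1.94 ± 0.36 (SE), adjusted p = 0.00029), and Nek7, the kinase that licenses NLRP3, fell from a range of 8.97 to 25.3 RPKM (median 14.4) to one of 3.58 to 6.50 RPKM (median 4.65) without overlap (log2 fold change -1.50 ± 0.27 (SE), adjusted p = 0.00020). Txnip, a binding partner of thioredoxin, fell from a median of 43.6 to 12.6 RPKM (adjusted p = 0.014), and without EIU4h retina 2 its adjusted p was 0.075. The other decrease was that of Naip5, whose call was lost in 8 of 15 alternative settings. Without single retinas the adjusted p of Naip5 was 0.023 to 0.12.

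Of 20 genes of the unfolded protein and integrated stress response, 3 rose, 1 fell and 16 did not pass the test (median 0.09, turning to -0.09 with equal summed RPKM). The shares were 15% and 5%, against 3.68% and 4.39% of all genes, so the share that fell was near that of all genes. Hspa5, 1 of the 3 that rose, lost its call in 11 of 15 alternative settings. Without single retinas its adjusted p was 0.014 to 0.15. The decrease was that of Hsp90b1, whose call was lost in 4 of the 15 settings. Ppp1r15a, which encodes GADD34, the phosphatase subunit that restores translation, rose from a range of 0 to 17.7 RPKM (median 5.05) to one of 29.8 to 987 RPKM (median 488) (log2 fold change 6.06 ± 0.81 (SE), adjusted p = 2.6e-06), without overlap, and Herpud1, a gene of protein degradation at the endoplasmic reticulum, from a range of 27.7 to 163 RPKM (median 76.3) to one of 109.6 to 1046 RPKM (median 769) with overlap. Among 22 cell cycle genes, 1 rose, 0 fell and 21 did not pass the test (median -0.14). The share that rose, 4.55%, was near the 3.68% of all genes. The one that rose was Ccnd2, a D-type cyclin, within low levels (median 0.0525 to 3.83 RPKM). Of 27 adhesion, integrin and matrix genes, 10 rose, 2 fell and 15 did not pass the test. Their median was -0.03 and their mean 0.80. Icam1, the ligand of leukocyte integrins, rose from a range of 0.0539 to 32.1 RPKM (median 6.10) to one of 94.5 to 652 RPKM (median 126) (log2 fold change 4.74 ± 0.60 (SE), adjusted p = 9.0e-07), Plaur, the urokinase receptor, from a range of 0 to 37.5 RPKM (median 6.80) to one of 128 to 819.5 RPKM (median 304) (log2 fold change 5.69 ± 0.70 (SE), adjusted p = 5.0e-07) and Marcksl1, an actin-regulating protein, from a range of 0 to 17.8 RPKM (median 1.94) to one of 107 to 1328 RPKM (median 180.0) (log2 fold change 6.34 ± 0.65 (SE), adjusted p = 1.5e-08), all 3 without overlap. Cd44, the hyaluronan receptor, rose from a range of 0 to 1.09 RPKM (median 0.631) to one of 1.04 to 57.5 RPKM (median 8.51) with overlap, and its change of 4.24 in experiment 1 and 0.75 in experiment 2 differed (adjusted p = 0.032). Itga6, the laminin-binding integrin alpha 6, fell from a range of 11.9 to 31.6 RPKM (median 16.9) to one of 0.651 to 6.87 RPKM (median 1.53) (log2 fold change -2.59 ± 0.31 (SE), adjusted p = 3.5e-07) without overlap.

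Other large decreases lay outside the lists. Hspb3, a small heat shock protein, fell from a range of 27.6 to 224 RPKM (median 62.5) to one of 0.995 to 11.5 RPKM (median 4.84) (log2 fold change -3.93 ± 0.48 (SE), adjusted p = 5.6e-07). Rgs2 and Rasgrp3, regulators of G-protein and Ras signalling, fell from a range of 57.5 to 201 RPKM (median 93) to one of 0.0478 to 31.3 RPKM (median 15.2) and from a range of 24.1 to 43.6 RPKM (median 29.9) to one of 0 to 10.2 RPKM (median 5.32) (log2 fold change -3.65 and -2.76). The glycosylation enzymes Gcnt1 and Gal3st4 fell from medians of 24.2 to 1.62 RPKM and 24.6 to 2.98 RPKM. Fam102b and Ivns1abp fell from medians of 29.1 to 2.39 RPKM and 157 to 32.9 RPKM. In all 7 genes the 4 h values lay below the naïve range. The decreases were larger in experiment 1 in each of the 7, for example -3.99 in experiment 1 and -1.57 in experiment 2 for Ivns1abp, but none of these differences between the experiments passed the test. In naïve retinas 3 to 6, all of experiment 1, Ivns1abp was at 413 to 690 RPKM, against 122 to 172 RPKM in the other naïve retinas.

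The up-regulated genes differed in how uniform they were across the 6 EIU4h retinas. Among those without overlap, predicted genes left out, the smallest SDs of log2(RPKM + 1) at 4 h were those of Eif5, a translation initiation factor (SD 0.12), Mllt6 (0.20), Sde2 (0.22), the ubiquitin ligase gene Rlim (0.25) and Pfkfb3 (0.25). Eif5 was at 21.7 to 62.7 RPKM (median 44.9) and 71.5 to 89 RPKM (median 85.7), a log2 fold change of 1.02 ± 0.26 (SE), adjusted p = 0.0097, and without naïve retina 3, 5 or 6 or EIU4h retina 2 its log2 fold change was 0.92 to 1.00, under the 2-fold threshold. The largest SDs were those of Cxcl2 (2.51), Tnip3 (2.46), Cxcl1 (2.45), Il1rn (2.34) and the interferon-inducible DNA sensor gene Ifi205 (2.18). Ifi205 was at 2.92 to 187 RPKM (median 16.8) at 4 h and at 0 to 1.55 RPKM (median 6.59e-05) in naïve retinas, with a change of 5.70 in experiment 1 and 2.34 in experiment 2.

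The order of the EIU4h retinas differed between lists. The chemokine list ranged from 2.54 to 3.93 above the naïve mean in all 6 EIU4h retinas. The NF-kappa B list was highest in EIU4h retinas 1 and 5, at 4.64 and 4.05, and lowest in EIU4h retina 2, at 1.49, where the interferon-stimulated list was at its highest (2.66) and the homeostatic list at its lowest (-2.42). In EIU4h retina 6 the homeostatic list was at -0.62 and in EIU4h retina 1 at -0.50, the smallest decreases. Naïve retina 1 lay above the other naïve retinas in the NF-kappa B list, at 1.21, and below them in the mitochondrially encoded list, at -2.90. Over all genes, the 4 h change differed between the experiments for 13 genes (0.0988%) at an adjusted p of at most 0.05 in the limma fit with an interaction term. Leaving out single retinas gave 1 (without EIU4h retina 6) to 38 (without EIU4h retina 1) such genes. Of the 5 named above, Cxcl1 passed in all 16 of these fits, Tnip3 in 13, Cd40 in 10, Ifit1 in 6 and Cd44 in 5, and without EIU4h retina 2, 4 or 6 only Cxcl1 did. Without naïve retina 1 and EIU4h retina 1, the microglial transcription factors had 1 increase and 8 decreases, the complement, Fc and phagocytic receptors 1 and 2, and the single decreases among the lysosomal protease and the cholesterol genes were no longer called.

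**Figure D5:**
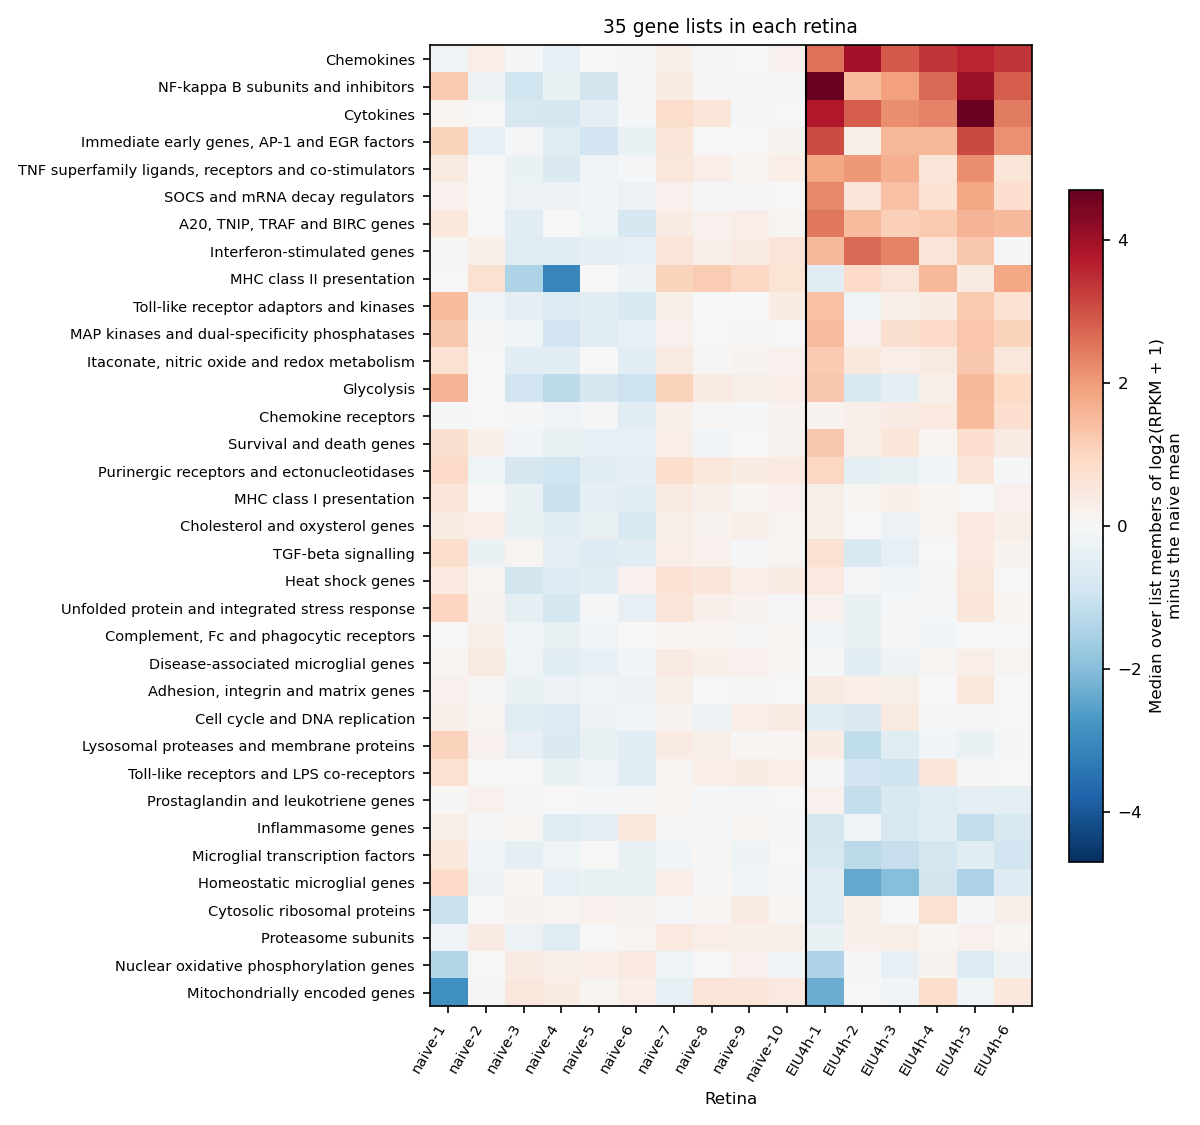
Median over the tested members of 35 gene lists (vertical axis) of log2(RPKM + 1) minus the naïve mean, for each of 10 naïve and 6 EIU4h retinas (horizontal axis), on a colour scale from blue (lower) to red (higher). Chemokine, NF-kappa B and cytokine lists are red in all EIU4h retinas, and the homeostatic list is blue in them, most of all in EIU4h retinas 2 and 3 (-2.42 and -2.02).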

How the data were processed

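The deposited table held 1 RPKM value per gene and retina, which the authors made by aligning trimmed reads to mm10 with STAR 2.5.3a and assigning them to Ensembl transcripts with the expectation-maximisation method of Partek Flow. This method can divide reads between similar genes, and a very low value or an exact 0 can be a product of the estimation. Whole reads were not recovered from RPKM. The tables of the authors' own DEGs, with their ANOVA p-values and fold changes, were not used. The line of alignments per retina was taken out, and 4 lines sharing a symbol were kept apart.

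Differences were tested with limma 3.58.1 in R 4.3.3 on log2(RPKM + 1), where 1 fit held the 4 groups and all 28 retinas. Variances were moderated with a trend on expression level, and p-values were adjusted by the Benjamini-Hochberg method over the 13164 genes reaching 1 RPKM in 5 retinas. Retina-level measures were compared by exact permutation over 8008 splits in Python 3.11.15 with SciPy 1.17.1, two-sided, and figures were drawn with matplotlib 3.10.9. Intervals are 95% intervals of the limma fit. The statistics were tested on simulated data. No pair of the 16 retinas shared more than 1 identical value above 0.

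The comparison, the gene lists and the markers were chosen with earlier results of these data known. Members of lists are therefore described by counts and medians without a set test, and lists share members. The permutation tests of summed chemokines, cytokines and markers used the same lists, so their p-values are not independent support. Named genes are the 15 largest increases and decreases without overlap, up to 5 DEGs a list in each direction, the heads of the pathways, the 10 highest genes of each group and the least and most variable increases. Symbols of predicted, Rik and antisense genes were left out, and 9 of these came before the fifteenth decrease. For 3 genes that the rule names no results are given here, nor for the direct difference of 4 h and 18 h. Gene positions come from GENCODE M21 (GRCm38), and the authors' Ensembl release may differ in gene models. Alternatives were other pseudocounts, filters, covariates, scalings, a replicate block, single experiments and leaving out each retina.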

Additional observations from a re-analysis of the deposited data

Results flagged for a closer look

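In 38 of 374 groups of values examined (10.2%), 1 retina stood apart from the rest of its group by Dixon's criterion. Its rate of about 1 in 20 holds for independent, normally distributed values. Where all other values are 0, as for Dusp2, Ikbke and Il10, any value above 0 is flagged. The groups also share retinas, so 10.2% cannot be set against that rate. Naïve retina 1 accounts for 16 of the 38 groups. Compared with the range of the other 9 naïve retinas it was high for Dusp2 (0.683 RPKM against 0 in the others), Dusp5 (1.66 RPKM against 0 to 0.677), Socs3 (15.8 RPKM against 0 to 0.876), Cx3cr1 (318 RPKM against 45.2 to 115), Slco2b1 (109 RPKM against 21.3 to 43), Tmem119 (1167 RPKM against 70.5 to 293), Csf1r (558 RPKM against 138 to 239), Slc2a6 (11.2 RPKM against 0 to 1.67), Acod1 (9.59 RPKM against 0 to 0.361), Ptgs1 (228 RPKM against 43 to 76.4), Pla2g15 (96.2 RPKM against 6.52 to 15.1) and Nlrp3 (8.51 RPKM against 1.51 to 4.09), and low for Ly86 (206 RPKM against 344 to 530.1) and Tmsb4x (2353 RPKM against 5033 to 8426). Its mitochondrially encoded share of 0.71% was below the 3.28% to 5.78% of the others. Its summed neutrophil markers stood at 83.2 RPKM against at most 21.4, and EIU4h retina 1 stood apart in the same sum at 54.2 RPKM against at most 24.5 in its group. In naïve retina 1 nearly all of the sum was Csf3r, at 83 RPKM. In EIU4h retina 1 it was Csf3r and Lcn2, at 36.8 and 17.3 RPKM. The neutrophil genes S100a9, Ngp, Retnlg and Mmp8 were listed at 0 in both retinas.

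Naïve retina 3 was low for Tlr4 (0.697 RPKM against 4.19 to 12.4), Il1a (0.595 RPKM against 13.7 to 102) and Il6 (0.0484 RPKM against 3.10 to 15.2) and high for Hhex (99.5 RPKM against 31.5 to 52.5). Its chemokine share of 0.952% and its share of Ccl3, Ccl4 and Ccl12 of 0.841% were the highest of the naïve group. Among other naïve retinas, retina 4 stood apart for Ikbke (0.0125 RPKM against 0 in the others), Cd83 (1.92 RPKM against 18.9 to 101) and Txnip (4.24 RPKM against 30.6 to 70.2), retina 5 for Tnfsf8 (0.0254 RPKM against 2.28 to 6.70), Pmaip1 (7.06 RPKM against 0 to 2.03) and Rlim (0.749 RPKM against 2.39 to 5.16), retina 7 for Cd40 (1.79 RPKM against 0 to 0.445) and retina 8 for Il10 (0.604 RPKM against 0 in the others). Among EIU4h retinas, retina 1 was high for H2-K1 (491 RPKM against 149 to 222), retina 3 was low for Mapk14 (0 RPKM against 2.97 to 7.05) and high for Bhlhe41 (11.7 RPKM against 1.47 to 3.25), and retina 4 was high for Cxcl10 (2566 RPKM against 1219 to 1495), low for Eif5 (71.5 RPKM against 84.4 to 89) and had the most alignments, 19700000. In EIU4h retina 5 the summed erythrocyte genes were at 735 RPKM.

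The 4 h change differed between the 2 experiments in 5 genes with values above, by a limma contrast of experiment 2 minus experiment 1 on the log2 scale. It was smaller in experiment 2 for Tnip3 (-4.05, adjusted p = 0.012), Cd40 (-3.30, adjusted p = 0.027), Ifit1 (-5.40, adjusted p = 0.027) and Cd44 (-3.49, adjusted p = 0.032), and larger for Cxcl1 (4.24, adjusted p = 0.00019). Each contrast rests on 3 EIU4h retinas per experiment. The number of genes with such a difference ranged from 0 to 46 over the alternatives below.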

How the results depend on the processing

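Of 169 named genes 155 were DEGs, and none of these changed direction under any alternative run. Of the others, Apoe turned from -0.10 to 0.37 with the replicate block, 0.0502 in experiment 1 alone and ranged from -0.41 to 0.10 without single retinas, above 0 without naïve retina 2, 7 or 9 or EIU4h retina 3. In the same way Ctss turned from -0.10 to 0.0342 in experiment 2 alone, and C1qb from 0.51 to -0.27 with quantile normalisation. The 485 up-regulated DEGs became 241 with a pseudocount of 10, 302 in experiment 1 alone and 244 at an adjusted p of 0.01 and a 4-fold change. The 578 down-regulated DEGs became 175 with a pseudocount of 10, 157 in experiment 1 alone, 1107 in experiment 2 alone, 1002 with equal summed RPKM, 360 in an ANOVA-type fit of untransformed RPKM and 116 at the stricter thresholds. For the stricter thresholds the smaller counts follow from their construction, and otherwise the cause was not tested. The share of up-regulated genes among DEGs was 45.6% and ran from 28.9% in experiment 2 alone and 29% with equal summed RPKM to 57.9% with a pseudocount of 10, 57.3% untransformed and 65.8% in experiment 1 alone. Leaving out single retinas gave 423 to 536 up-regulated and 431 to 659 down-regulated DEGs, and leaving out naïve retina 1 with EIU4h retina 1 gave 441 and 460. Other pseudocounts, filters, covariates, the fit of the 2 groups alone, the variance model and quantile normalisation stayed within 1.5 times of both counts. Calls were lost for 38 named genes with a pseudocount of 10, 46 in experiment 1 alone, 18 in experiment 2 alone, 38 untransformed, 13 with no filter and 5 with equal summed RPKM.

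The 13 genes whose change differed between the experiments became 0 with a pseudocount of 0.1, 46 with a pseudocount of 10, 25 with no filter, 1 with a filter at 5 RPKM and 38 without naïve retina 1 and EIU4h retina 1, settings chosen for this count after the data were seen. Leaving out single retinas gave 1 to 38, with 38, 4, 3, 25 and 1 without EIU4h retina 1, 2, 4, 5 or 6, and 6 to 8 without naïve retina 2, 3, 4, 5, 7, 8, 9 or 10. The replicate numbers did not pair the retinas. Deviations from the group means of same-numbered retinas correlated across genes at 0.70, 0.05, 0.18, -0.02, -0.26 and -0.15, and of the 6 EIU4h retinas only the first correlated best with its own number. With the replicate block the counts were 565 and 511, of which 430 and 407 were among those reported. Read numbers per gene are not known from RPKM, so values near 0 have an unknown counting error.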
